A study of Mus musculus with 12 samples.

Results

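The peaks described here lie on cytochrome P450 genes of families 1 to 3, the haem enzymes with which the liver oxidises drugs, pollutants, steroids and fatty acids. They were chosen by gene symbol: a peak was taken when a symbol in its annotation was Cyp, a family digit from 1 to 3, 1 letter and a number. This gave 208 peaks on 40 genes, out of 37118 peaks on 13060 genes in all. RefSeq (assembly GRCm38.p6) lists 59 mouse symbols of that form, so some of the family has no m6A peak in this set. The samples were livers of wild-type male C57BL/6 mice, which entered the study at 6 to 8 weeks of age. Mice in the control group received 0 mg/kg/day CdCl2 by gavage and those in the cadmium group 20 mg/kg/day, and livers were taken at day 90. Each group has 3 samples, labelled as batches 1, 2 and 3, drawn from groups of 6 animals. The labels do not say outright that each sample is 1 mouse, so p-values measure the spread between these samples.

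A P450 enzyme needs a haem group, which is made in a pathway that starts with Alas1, and electrons that reach it through the reductase Por. Families 1 to 3 hold most of the enzymes that act on foreign compounds. Many of their genes are switched on by receptors that sense such compounds: Ahr for family 1, Nr1i3 (also called CAR) for subfamily 2b, and Nr1i2 (also called PXR) for subfamily 3a. Several mouse subfamilies sit in tight clusters of near-identical copies, and some copies are expressed mainly in males or mainly in females. In the liver lobule many of these enzymes are made around the central vein.

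The measurement was the number of sequenced fragments per m6A peak. N6-methyladenosine (m6A) is a methyl mark on RNA, and MeRIP-seq enriches RNA fragments that carry it with an antibody. The count columns were read as the antibody-enriched libraries, which is an assumption from the table's make-up. Because input counts were not used here, the amount of RNA and the methylated share cannot be told apart in a peak's count. In whole liver, fewer cells of a type and less RNA per cell cannot be told apart either. Counts in peaks totalled 40174736 to 52338612 per library. The 2 largest peaks, neither on a P450 gene, took 4.95% to 19.7% of them.

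Levels below are counts scaled by TMM to a common library size (CPM), for the peak of each gene with the most counts, its leading peak. Log2 differences are cadmium relative to control, with a standard error (SE). A peak was called when the adjusted p of the edgeR quasi-likelihood test over all 37088 tested peaks was below 0.05. All 208 peaks passed the filter on low counts and were tested. How reads that match several copies of a gene were placed, and whether counting used strand, was not stated in the labels, so separate values within a cluster are uncertain.

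Most P450 peaks of families 1 to 3 had somewhat lower counts in cadmium than in control livers, and few of them were called. The log2 difference was below 0 at 159 of 208 peaks (76.4%), against 50.5% of all peaks, and its median was -0.29, against -0.00 for all peaks. Called lower were 10 peaks (4.81% of the members), against 2.72% of all tested peaks. They lay on Cyp2a5, Cyp2g1, Cyp3a13, Cyp2c50 and Cyp2c54. Called higher were 2 peaks (0.962% of the members), both on Cyp2c69, against 3.55% of all tested peaks. Peaks of 1 gene share their RNA and are not independent.

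Taken gene by gene, 25 of 40 leading peaks had a log2 difference below 0, against 48.0% of the leading peaks of all genes. The median over the 40 was -0.16, against 0.02 over all genes. Leading peaks were called lower for 3 genes (Cyp2a5, Cyp2g1 and Cyp3a13), where the share over all genes was 2.4%, and higher for 0, where it was 4.28%. All 3 cadmium samples were below all 3 controls at 12 of 40 leading peaks, against 11.5% of all genes. All 3 were above the controls at 3, against 16.5%. Within the batches, 16 of 40 leading peaks were lower in cadmium in all 3, against 22.7% over all genes, and 5 were higher in all 3, against 26.7%. With the batch as a block the calls rose to 23 lower peaks on 9 genes (11.1% of the member peaks), with 2 higher peaks (0.962%). Over all peaks 3.83% and 4.65% were called. Of the 23, 14 lay on subfamily 3a. Leading peaks with the block were called lower for 6 genes (3.53% over all genes) and higher for 1, Cyp2c40 (5.73%). Counts summed per gene were called lower for 3 genes, Cyp2a5, Cyp2g1 and Cyp3a13 (3.95% of all genes), or for 7 with the block (4.82%). By sums 1 gene, Cyp2c69, was called higher (5.53%), or 0 with the block (6.05%). DESeq2, another count test, called 24 lower and 7 higher (4.44% and 5.48% of all peaks).

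**Figure D1:**
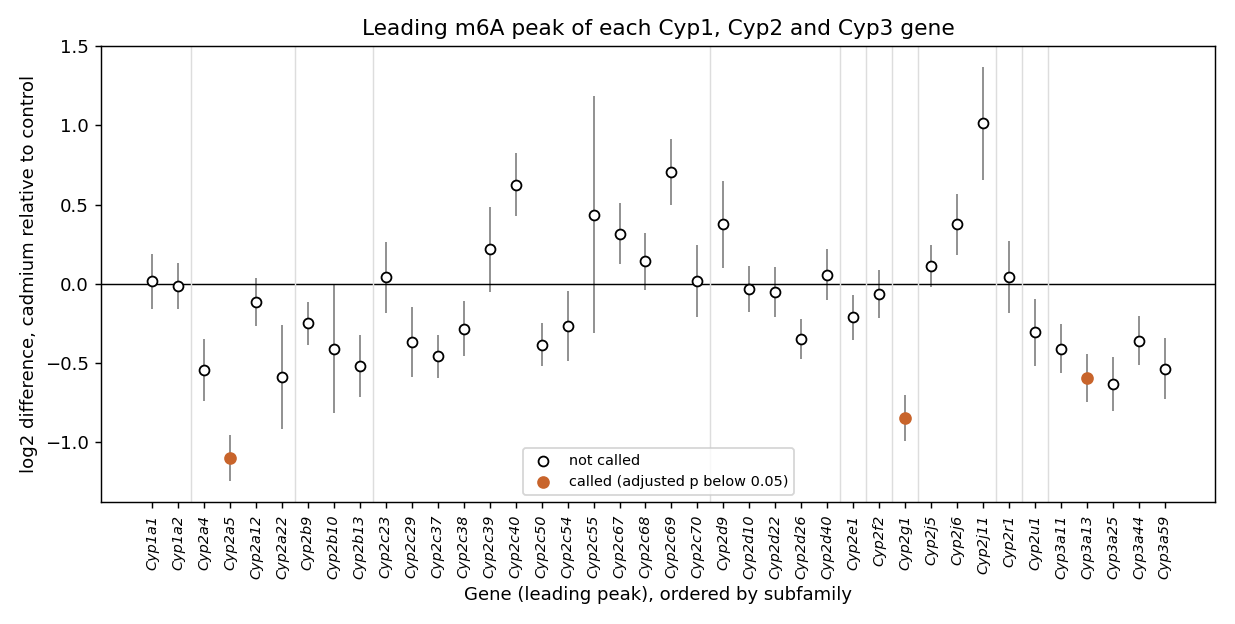
Log2 difference (cadmium relative to control) of the leading peak of each of the 40 genes, ordered by subfamily. Points are edgeR estimates with SE as bars, and filled points are the 3 called genes Cyp2a5, Cyp2g1 and Cyp3a13. All 5 Cyp3a genes lie below 0, all 3 Cyp2j genes above it, and the Cyp2c genes on both sides.

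Among the called members, Cyp2a5 in subfamily 2a had the steepest fall. Cyp2a5 encodes coumarin hydroxylase, an enzyme that also oxidises nicotine and is a target of Nr1i3. Its leading peak on chromosome 7 (26842848 to 26843203) gave 444, 497 and 457 CPM in control replicates 1, 2 and 3, and 191, 251 and 212 CPM in cadmium replicates 1, 2 and 3. The groups were far apart, with the highest cadmium sample well under the lowest control. The level was 2.14-fold lower, from 466 ± 27.6 to 218 ± 30.4 CPM (SD, n = 3), an adjusted p of 0.00284 from edgeR. Within batches 1, 2 and 3 the log2 differences were -1.22, -0.99 and -1.11. The other 2 peaks of the gene were 2.02-fold and 2.15-fold lower. All 3 peaks were called with any 1 of the 6 samples left out.

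Cyp2a4, a steroid hydroxylase expressed mainly in females, is the copy most like Cyp2a5. Its leading peak gave 243, 175 and 152 CPM in the controls and 149.9, 107 and 135 CPM in the cadmium samples. The cadmium samples were all below the controls, but control replicate 3 was close to cadmium replicate 1, and the difference of -0.54 (SE 0.20) was not called (adjusted p = 0.135, 0.0601 with the batch as a block). The ratio of Cyp2a5 to Cyp2a4 was 1.83, 2.84 and 3.01 in the controls and 1.27, 2.35 and 1.57 in the cadmium samples. The groups overlapped in this ratio, while within each of the 3 batches the cadmium sample had the lower ratio. Its log2 difference was -0.58, with an exact two-sided permutation p of 0.2 without regard to batch. The smallest p that 3 against 3 samples allow is 0.1, so this test could not have passed the threshold and leaves undecided whether the genes differ in response.

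The starts of these 2 genes are printed because their sequences are nearly the same. Over the 250 bases before the annotated start, 245 of 249 aligned bases were identical (98.4%). The lines give the sense strand, which reads as the RNA does, from RefSeq on GRCm38.p6, for chr7:26306942-26307191 (Cyp2a4, plus strand) and chr7:26835089-26835338 (Cyp2a5, plus strand). Capitals mark, from left to right, matches to TTGCNNAA, a form of the C/EBP site, CAAAGTCC, a form of the HNF4 site, and TATAAA, the TATA box.
Cyp2a4: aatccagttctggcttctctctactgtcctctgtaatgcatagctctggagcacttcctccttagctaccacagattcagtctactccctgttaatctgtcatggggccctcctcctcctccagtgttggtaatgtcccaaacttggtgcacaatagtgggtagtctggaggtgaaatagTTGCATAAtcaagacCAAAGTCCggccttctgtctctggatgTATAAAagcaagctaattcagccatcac
Cyp2a5: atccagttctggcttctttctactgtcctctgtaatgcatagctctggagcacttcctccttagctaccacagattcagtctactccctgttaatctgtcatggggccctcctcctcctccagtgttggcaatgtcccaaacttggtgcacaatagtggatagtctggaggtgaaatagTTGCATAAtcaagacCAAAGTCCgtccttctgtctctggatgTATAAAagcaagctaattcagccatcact

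Both genes carry the same 3 matches in the same order. The motifs were chosen with these sequences in view and searched on both strands. Of the 32851 promoters in the table, 9.56% hold TTGCNNAA, 1.20% CAAAGTCC and 12.4% TATAAA. Among the 35 of 40 genes with an entry, 9 hold the first, 8 the second and 19 the third. A match is a run of letters and was not shown to be bound here.

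Cyp2g1, known mainly from the olfactory mucosa, was called as well, through 1 peak between Cyp2a4 and Cyp2a5 (26821019 to 26821130). It gave 22.4, 22.6 and 22.7 CPM in the controls and 11.3, 14.2 and 12.2 CPM in the cadmium samples. The groups did not overlap, and the level was 1.80-fold lower (log2 difference -0.85, SE 0.15, adjusted p = 0.00984). Without cadmium replicate 3 the adjusted p was 0.0717. A peak with no gene, 165851 bases before it, had similar counts: 1094, 1131 and 962 against 1099, 1133 and 1004 for Cyp2g1 in the controls. In the cadmium samples it held 508, 655 and 538 against 477, 783 and 561. It was also called lower (log2 difference -0.91, adjusted p = 0.00505). The Cyp2g1 peak ran at 4.54% to 5.04% of the count of the Cyp2a5 leading peak in the controls and at 5.65% to 5.91% in the cadmium samples. Whether reads of Cyp2a5 or other copies were counted at Cyp2g1 was not tested.

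**Figure D2:**
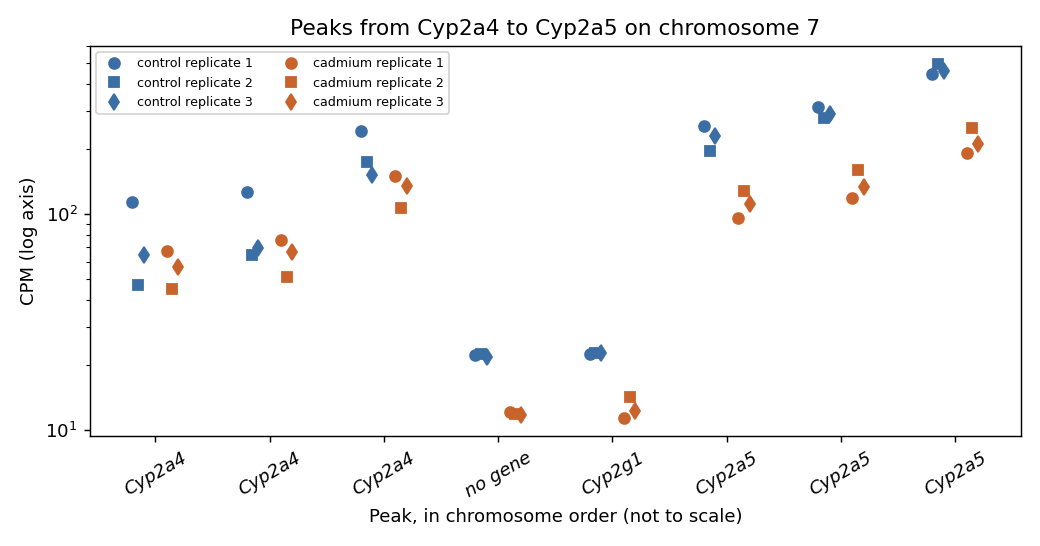
CPM (log axis) of the 8 peaks from Cyp2a4 to Cyp2a5 in chromosome order, 1 marker per library and replicate. The peak with no gene and the Cyp2g1 peak sit at a similar level, near 22 CPM in the controls and 12 CPM in the cadmium samples, and the 3 Cyp2a5 peaks are lower in every cadmium library.

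The remaining 2a genes were not called. Cyp2a22, whose 5 peaks share their annotation with the pseudogene Cyp2a21-ps, ranged from 39.4 to 115 CPM in the controls and from 47.1 to 71.6 CPM in the cadmium samples. Control replicate 1 was the lowest of all 6, the groups overlapped, and the difference was -0.59 (SE 0.33, adjusted p = 0.330). Without that replicate it was -0.93 (adjusted p = 0.0305), so 1 control library decides this call. Cyp2a12, a steroid hydroxylase, differed by -0.11 (SE 0.15).

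In subfamily 3a, all 36 peaks had a log2 difference below 0, from -0.76 to -0.25, and the leading peaks of all 5 genes were lower in every cadmium sample than in any control. Of the 36 peaks, 3 were called, all on Cyp3a13, where 2.72% of all tested peaks were called lower. With the batch as a block 14 were called, where 3.83% of all peaks were called lower. These enzymes hydroxylate steroids, bile acids and a large share of drugs. The genes share a cluster, except Cyp3a13, which lies apart on the same chromosome 5. Their 36 peaks held 0.365% to 0.385% of all counts in the controls and 0.252% to 0.306% in the cadmium samples.

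Cyp3a13 (leading peak 137893950 to 137894446) gave 79.0, 87.6 and 66.9 CPM in the controls and 49.4, 55.1 and 50.3 CPM in the cadmium samples. It was 1.51-fold lower, from 77.8 ± 10.4 to 51.6 ± 3.07 CPM (SD, n = 3, log2 difference -0.59, adjusted p = 0.0429). The call of the leading peak was lost when any 1 of the 6 samples was left out (adjusted p from 0.0561 to 0.188) with library totals as the only scaling (0.130) and with upper-quartile scaling (0.0540). Summed over its 6 peaks, the gene was called (log2 difference -0.56, adjusted p = 0.0228). This summed call was lost without control replicate 2 (0.0567), cadmium replicate 1 (0.0644) or cadmium replicate 3 (0.0926).

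Cyp3a11, the main inducible Cyp3a enzyme of mouse liver and a classical Nr1i2 target, gave 441, 374 and 513 CPM in the controls. In the cadmium samples it gave 324, 306 and 371 CPM. The highest cadmium sample was just under the lowest control, and the difference of -0.41 (SE 0.16) was not called (adjusted p = 0.153). Within batches 1, 2 and 3 it was -0.45, -0.29 and -0.47. With the batch as a block the summed count of its 6 peaks was called (log2 difference -0.48, adjusted p = 0.0365), where 4.82% of all genes were called lower.

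Cyp3a25, the subfamily member with the most peaks, gave 200.1, 206 and 204 CPM in the controls and 166, 107 and 122 CPM in the cadmium samples. The controls were tight and the cadmium samples spread out below them. The difference of -0.63 (SE 0.17) just missed the threshold (adjusted p = 0.0557) and passed it with the batch as a block (0.0358). Without cadmium replicate 1, its highest cadmium sample, the difference was -0.83 (adjusted p = 0.0191).

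Cyp3a59 differed by -0.54 (SE 0.19), with an adjusted p of 0.131, or 0.0434 with the block. Cyp3a44, expressed mainly in females, differed by -0.36 (SE 0.15, adjusted p = 0.202) and stood at 13.4 to 19.7 CPM. The 5 peaks with no gene just before Cyp3a44, spread over 28987 bases, held 460 to 475 counts in control replicate 1, and Cyp3a44 held 536 to 756 there. They differed by -0.48 to -0.24. The next gene in the cluster, Cyp3a41a, is outside the symbol rule and went the other way, by 0.97 to 1.19 at its 5 peaks, none of them called. Its counts ran from 263 to 572 in control replicate 1 and from 1022 to 10310 in the other 5 libraries.

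Subfamily 2c, the largest with 13 genes and 78 peaks on chromosome 19, held changes in both directions. These enzymes oxidise arachidonic acid and other fatty acids, and drugs. Of the 78 peaks, 3 were called lower, 2 on Cyp2c50 and 1 on Cyp2c54, and 2 were called higher, on Cyp2c69. Over all tested peaks the shares called were 2.72% lower and 3.55% higher. Leading peaks were below 0 for 5 of 13 genes. Of all 78 peaks, 59 were below 0, and 23 of these lay on Cyp2c38. The whole subfamily took 0.448 ± 0.0384% of counts in the controls and 0.437 ± 0.0573% in the cadmium samples (SD, n = 3), a difference within the spread.

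Cyp2c37, Cyp2c54 and Cyp2c50 are neighbours, and all of their peaks were below 0. Cyp2c37, an arachidonic acid oxidising enzyme and target of Nr1i3, gave 239, 239 and 214 CPM in the controls and 156, 178 and 169.8 CPM in the cadmium samples. The groups did not overlap, and the difference of -0.46 (SE 0.13) was not called (adjusted p = 0.0698). DESeq2 gave it an adjusted p of 0.0322.

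At Cyp2c50, another target of Nr1i3, the peak from 40093694 to 40093956 gave 38.6, 44.9 and 31.3 CPM in the controls and 25.7, 20.7 and 22.1 CPM in the cadmium samples. All cadmium samples were below all controls, and this peak was 1.67-fold lower (adjusted p = 0.0312). The second called peak of Cyp2c50 was 1.57-fold lower (adjusted p = 0.0325), while the leading peak differed by -0.38 (SE 0.14) and was not called (0.133). The calls on the first and second peak were kept in 2 and 1 of 6 fits with 1 sample left out.

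At Cyp2c54 the called peak from 40066054 to 40066259 gave 24.9, 24.1 and 24.0 CPM in the controls and 14.1, 18.01 and 17.1 CPM in the cadmium samples. It was 1.48-fold lower (adjusted p = 0.0489), and the call held in 0 of 6 fits with 1 sample left out. The leading peak of Cyp2c54 differed by -0.27 (SE 0.22), with overlapping groups.

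Next to these lies a stretch where cadmium samples were higher. Cyp2c69, expressed mainly in females, gave 125, 75.0 and 132 CPM at its leading peak in the controls and 188, 197 and 158 CPM in the cadmium samples. The lowest cadmium sample was above the highest control, and control replicate 2 was far below the other controls. The level was 1.63-fold higher, but the difference of 0.71 (SE 0.21) was not called (adjusted p = 0.0715). Within batches 1, 2 and 3 it was 0.59, 1.39 and 0.25. The 2 called peaks of the gene had differences of 0.67 (adjusted p = 0.0489) and 0.83 (0.0483), and these calls held in 0 and 1 of 6 fits with 1 sample left out. With the batch as a block only the first was called (0.0470, and 0.0553 for the other). Summed over its 4 peaks Cyp2c69 was called higher (log2 difference 0.65, adjusted p = 0.0495). That call was lost with any 1 sample left out (0.0633 to 0.120) and with the batch as a block (0.0612).

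Its neighbour Cyp2c40, an arachidonic acid hydroxylase, gave 142, 83.0 and 108 CPM in the controls and 191, 179 and 144 CPM in the cadmium samples. Control replicate 2 was again the lowest and the groups were only just apart. The difference of 0.63 (SE 0.20) was not called (adjusted p = 0.0943), but passed with the batch as a block (0.0453) and without control replicate 1 (0.0313). Cyp2c67 differed by 0.32 (SE 0.19) and Cyp2c68 by 0.14 (SE 0.18), both with overlapping groups. The 4 peaks with no gene between Cyp2c67 and Cyp2c69 differed by 0.30 to 0.67, and none was called.

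The starts of Cyp2c40 and Cyp2c69 are printed for the same reason as the pair above: 217 of 220 aligned bases were identical (98.6%). The annotated starts differ in place, so the shared stretch is shifted between the lines. They are the sense strand from RefSeq on GRCm38.p6 for chr19:39812815-39813064 (Cyp2c40, minus strand) and chr19:39886770-39887019 (Cyp2c69, minus strand). Capitals mark CAAAGTCC in both and TTGCNNAA in Cyp2c69. The Cyp2c40 line ends partway through the stretch aligned to that TTGCNNAA match, so whether Cyp2c40 carries it is not shown.
Cyp2c40: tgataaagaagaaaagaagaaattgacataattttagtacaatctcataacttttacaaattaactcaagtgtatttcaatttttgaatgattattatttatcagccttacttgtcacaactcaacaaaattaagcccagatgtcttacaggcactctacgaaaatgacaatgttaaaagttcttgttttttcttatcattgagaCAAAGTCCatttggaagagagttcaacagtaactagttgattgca
Cyp2c69: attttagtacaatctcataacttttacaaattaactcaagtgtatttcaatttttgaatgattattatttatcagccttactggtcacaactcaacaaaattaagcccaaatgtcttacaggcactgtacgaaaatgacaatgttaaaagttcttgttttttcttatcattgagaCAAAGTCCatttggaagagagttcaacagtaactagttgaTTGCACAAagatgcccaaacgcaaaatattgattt

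The CAAAGTCC run stands before Cyp2a4, Cyp2a5, Cyp2c40 and Cyp2c69, and its relation to their differences was not tested.

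**Figure D3:**
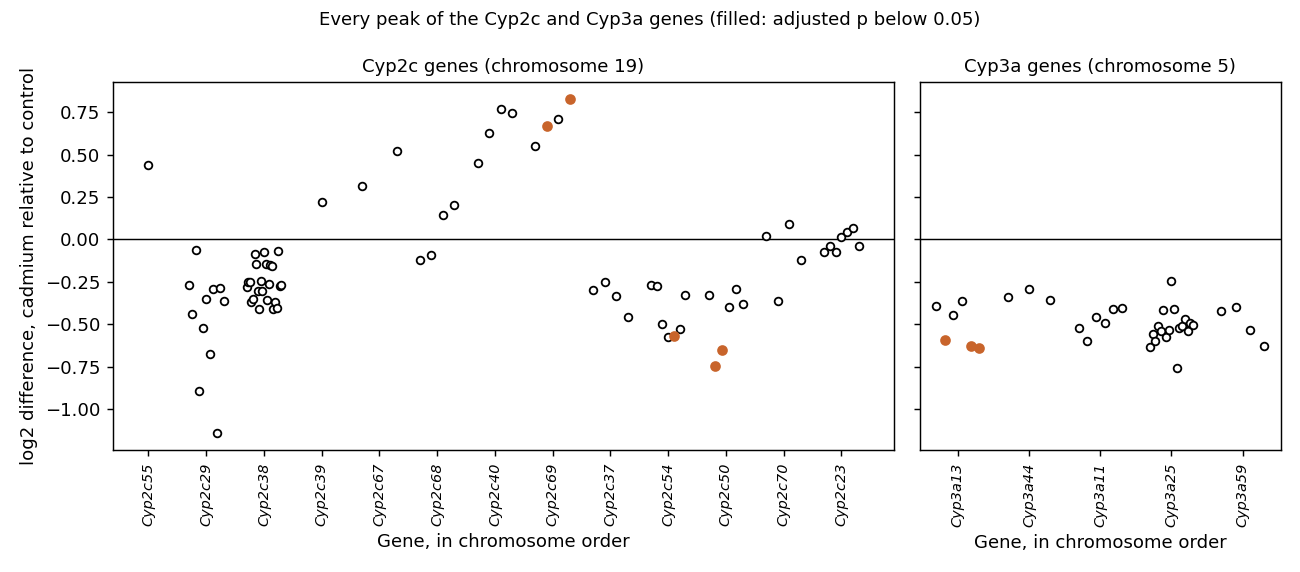
Log2 difference (cadmium relative to control) of every peak of the 13 Cyp2c genes and the 5 Cyp3a genes, genes in chromosome order and peaks in order within a gene. Filled points were called (adjusted p below 0.05). Peaks of Cyp2c40 and Cyp2c69 lie above 0, those of Cyp2c37, Cyp2c54 and Cyp2c50 below it, and all 36 Cyp3a peaks lie below 0.

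Of the other Cyp2c genes, Cyp2c29, a target of Nr1i3, gave 211, 237 and 198 CPM in the controls and 196, 106 and 200.1 CPM in the cadmium samples. Only cadmium replicate 2 was low. The difference was -0.36 (SE 0.22) with it and -0.12 (SE 0.16) without it, and neither was called. Cyp2c38 carried 23 peaks, the most of any member, all with differences below 0 (-0.41 to -0.07) and none called. Cyp2c70, which makes the muricholic acids of mouse bile, differed by 0.02 (SE 0.23) and Cyp2c23, an arachidonic acid epoxygenase, by 0.04 (SE 0.22). Cyp2c39 and Cyp2c55 had 1 peak each, at means under 5 CPM, and were not called.

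In subfamily 2b, 0 of 24 peaks were called and 23 had a difference below 0. Cyp2b13, expressed mainly in females, had the most counts: 139, 218 and 174 CPM in the controls and 100.4, 146 and 125 CPM in the cadmium samples. The groups overlapped through control replicate 1 and cadmium replicate 2, and the difference of -0.52 (SE 0.20) was not called (adjusted p = 0.150). Within batches 1, 2 and 3 it was -0.47, -0.58 and -0.48, and with the batch as a block it was called (adjusted p = 0.0335). Cyp2b9, also mainly female, differed by -0.25 (SE 0.13, adjusted p = 0.317).

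Cyp2b10, the standard reporter of Nr1i3 activity in mouse liver, varied more between samples than the other 2b genes. Its leading peak gave 30.4, 65.0 and 53.2 CPM in the controls and 38.4, 15.05 and 58.5 CPM in the cadmium samples. The groups overlapped throughout, and cadmium replicate 2 was the lowest of all 6 while cadmium replicate 3 was among the highest. The difference was -0.41 (SE 0.41), and -0.03 (SE 0.30) without cadmium replicate 2. Of its 12 peaks, 5 neighbours within 2255 bases held counts close to each other within a library. These ran from 765 to 771, 1454 to 1607 and 1134 to 1314 in the controls and from 791 to 795, 440 to 442 and 1352 to 1354 in the cadmium samples. Control replicates 2 and 3 had the wider ranges.

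Family 1 showed no difference beyond the spread. Cyp1a2, which metabolises caffeine and aromatic amines and is a target of Ahr, gave 1468, 1177 and 1261 CPM in the controls and 1155, 1245 and 1471 CPM in the cadmium samples. The ranges nearly coincide, and the difference was -0.01 (SE 0.15, adjusted p = 0.970). Its 7 peaks lay between -0.06 and 0.03. Cyp1a1, the most inducible Ahr target, stood at 15.2 to 21.2 CPM in the controls and 17.1 to 21.7 CPM in the cadmium samples. Cyp1b1, the third Ahr target of the family, has no peak in this set.

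Cyp2e1, which oxidises ethanol and acetaminophen, had the highest level per length, with a mean of 3161 CPM per kb at its leading peak, above Cyp3a11 (1547) and Cyp1a2 (1514). It gave 1132, 1059 and 1024 CPM in the controls and 793, 1045 and 939.7 CPM in the cadmium samples. The groups overlapped and the difference of -0.21 (SE 0.14) was not called (adjusted p = 0.424). Cyp2f2, which oxidises naphthalene, gave 123.5, 98.3 and 95.1 CPM in the controls and 110.0, 92.3 and 101 CPM in the cadmium samples, a difference of -0.06 (SE 0.15).

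In subfamily 2d, 0 of 10 peaks were called. Cyp2d10 had the most counts: 189.6, 162 and 194 CPM in the controls and 159, 195 and 179 CPM in the cadmium samples, with overlapping groups and a difference of -0.03 (SE 0.14). Cyp2d26 was lower in all 3 cadmium samples (169 ± 6.18 against 133 ± 3.33 CPM, SD, n = 3), a difference of -0.35 (SE 0.13) that was not called (adjusted p = 0.137). Cyp2d9, expressed mainly in males, differed by 0.38 (SE 0.28), Cyp2d22 by -0.05 (SE 0.16) and Cyp2d40 by 0.06 (SE 0.16).

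Subfamily 2j, whose enzymes make epoxides of arachidonic acid, leaned upward: the 3 leading peaks and 18 of 20 peaks were above 0, and 0 were called. Cyp2j5 gave 146, 129.7 and 125 CPM in the controls and 145, 149.7 and 139 CPM in the cadmium samples, a difference of 0.11 (SE 0.13) with overlapping groups. Cyp2j6 differed by 0.38 (SE 0.19, adjusted p = 0.291), and all 6 of its peaks were above 0 (0.34 to 0.62). Cyp2j11 was 0.448, 0.438 and 0.408 CPM in the controls and 0.615, 0.850 and 1.15 CPM in the cadmium samples. The groups do not overlap, at 18 to 53 counts per library, and the difference of 1.01 (SE 0.36) was not called (adjusted p = 0.125). Cyp2r1, a vitamin D hydroxylase, differed by 0.04 (SE 0.23), and Cyp2u1, a fatty acid hydroxylase, by -0.31 (SE 0.21).

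**Figure D4:**
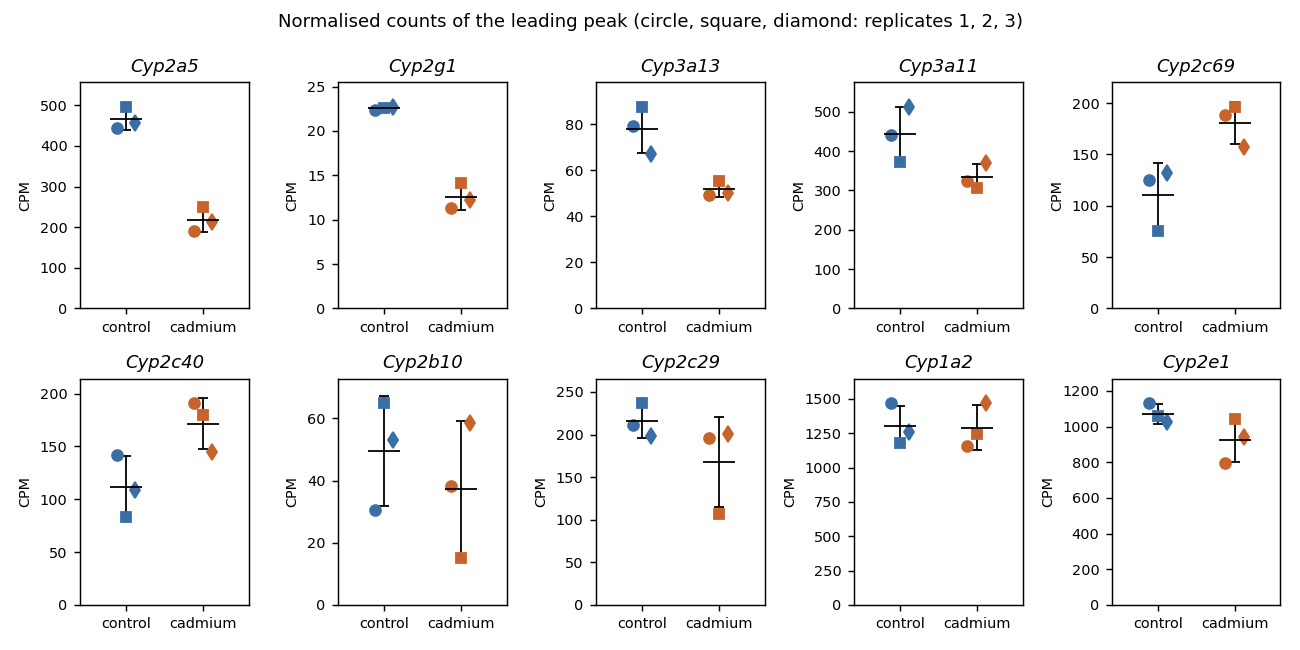
CPM of the leading peak in each library for 10 genes, with linear axes from 0. Circles, squares and diamonds are replicates 1, 2 and 3, and bars are the mean and SD of 3 samples. Control and cadmium samples do not overlap for Cyp2a5, Cyp2g1, Cyp3a13, Cyp3a11, Cyp2c69 and Cyp2c40, and cadmium replicate 2 is the low sample for Cyp2b10 and Cyp2c29.

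A peak can also change relative to the other peaks of its gene, which a change in the whole RNA would not give. Of 199 P450 peaks on genes with several peaks, 0 departed from the rest of the gene by the edgeR exon-level test at an adjusted p below 0.05, where 0.0296% of all peaks did. At an unadjusted p below 0.05 the count was also 0, where 0.966% of all peaks passed. With the batch as a block, or with any 1 sample left out, it was 0 at the adjusted threshold. This test passed few peaks of any gene, so a count of 0 does not show that the peaks of a gene changed alike. The 11 peaks of Cyp2c29, for instance, had differences from -1.14 to -0.06. Leading peaks lay in the last 20% of the gene span for 25 of 35 genes that could be placed on RefSeq, against 59.9% of all genes, and in the first 20% for 3, against 13.4%.

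Members were also grouped by the receptor known to drive them. The leading peaks of 9 targets of Nr1i3 or Nr1i2 (Cyp2a5, Cyp2b10, Cyp2c29, Cyp2c37, Cyp2c50, Cyp2c54, Cyp2c55, Cyp3a11 and Cyp3a13) summed to 1662 to 1698 CPM in the controls and to 1090 to 1218 CPM in the cadmium samples. Of the 9, 8 were below 0 (48.0% over all genes) and 2 were called lower, Cyp2a5 and Cyp3a13 (2.4% over all genes). The median of the 9 was -0.41. This list was chosen with earlier results of these data known, and Cyp2c37, Cyp2c54 and Cyp2c50 are neighbours whose separate values are uncertain. The part of the receptors was not tested. Much of the change in the sum came from Cyp2a5, with means of 466 CPM in the controls and 218 CPM in the cadmium samples. Ahr targets (Cyp1a1 and Cyp1a2) summed to 1192 to 1489 CPM in the controls and 1174 to 1493 CPM in the cadmium samples. Of 7 measured members known as mainly female, 0 were called, or 1 lower and 1 higher with the block (3.53% and 5.73% over all genes). Their sum was 756 to 834 CPM in the controls and 743 to 791 CPM in the cadmium samples. Of 2 known as mainly male, 0 were called, and their sum was 34.5 to 56.5 CPM in the controls and 39.1 to 61.8 CPM in the cadmium samples. Why mainly female members stood at higher levels than these in livers given as male was not tested.

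Among the receptors and factors themselves, 25 of 26 listed genes had a peak. Of these, 3 were called lower and none higher, against 2.4% and 4.28% over all genes. The 3 were Cebpb, a liver factor of the acute phase (log2 difference -1.09, adjusted p = 0.0161), and Tef (-0.95, 0.0152) and Hlf (-0.82, 0.0487), daily cycling factors that bind D-boxes. The Cebpb peak is also annotated to Tmem189. With the block 6 of the listed genes were called lower and 1 higher (3.53% and 5.73% over all genes). The leading peak of Nr1i3, also annotated to Tomm40l, averaged 86.7 CPM in the controls and 54.1 CPM in the cadmium samples. Its difference of -0.68 missed the threshold (adjusted p = 0.0525) and passed with the block (0.0193). Reads of the 2 genes cannot be told apart in this peak. Nr1i2 differed by -0.52 (0.0654, or 0.0489 with the block) and Ahr by -0.47 (0.296). The D-box sequences TTACGTAA and TTATGTAA occur in 0.931% of all promoters and in 0 of the 35 members' promoters, which says only that these letters are not in the 250 bases searched.

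Of 16 genes that supply electrons or haem, 2 were called lower (2.4% over all genes), Por (2.30-fold) and Alas1 (8.41-fold). Called higher was 1 (4.28% over all genes), the haem oxygenase Hmox1 (1.95-fold). The other electron carriers were not called: Cyb5a differed by -0.17, Cyb5b by 0.00 and Cyb5r3 by 0.37. Haem synthesis genes after Alas1 were not called either, with Cpox at -0.46 and Fech at -0.38. Of 16 P450 genes outside families 1 to 3 with a peak, 4 were called lower (2.4% over all genes). These were the bile acid enzymes Cyp7a1 (-2.06) and Cyp39a1 (-1.01) and the fatty acid hydroxylases Cyp4a14 (-1.71) and Cyp4a10 (-1.48). Called higher were Cyp8b1 (1.66) and Cyp4f17 (1.00), where the share over all genes was 4.28%.

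Zonal and cell type markers were measured beside these results, and their part in them was not tested. Over all genes, 2.4% of leading peaks were called lower and 4.28% higher, or 3.53% and 5.73% with the block. Of 13 genes typical of the area around the central vein, 0 were called, and they summed to 2643 to 2993 CPM in the controls and 2577 to 2923 CPM in the cadmium samples. Of 12 genes typical of the area around the portal vein, 1 was called lower, Pck1 (-0.83), or 2 with the block. Their sums did not overlap, at 3492 to 3558 CPM in the controls and 2533 to 2821 CPM in the cadmium samples. Gene by gene, 7 of the 12 were below 0 (48.0% over all genes), with a median of -0.16. Hepatocyte markers were abundant, with sums of 19573 to 21649.9 CPM in the controls and 17783 to 20255 CPM in the cadmium samples. Of 8 of them 1 was called lower, Tat (-1.20), while Alb differed by -0.05 and Ttr by 0.02. Macrophage markers were called higher at 2 of 5 (Cd5l and Csf1r), while 2 of the 5 were below 0. Their sums were 88.6 to 120.1 CPM in the controls and 128 to 162 CPM in the cadmium samples. Endothelial markers were called higher at 1 of 7 (Lyve1), with sums of 139 to 218 CPM and 152 to 219 CPM. Stellate cell markers were called at 0 of 7, or 2 with the block, and all 7 were above 0. Their sums were 149 to 199.5 CPM in the controls and 229 to 257 CPM in the cadmium samples. Of 4 cholangiocyte markers with a peak 0 were called, with sums of 25.2 to 32.5 CPM in the controls and 21.8 to 74.1 CPM in the cadmium samples. Of 2 lymphocyte markers with a peak 0 were called, and their sums were 1.38 to 2.41 CPM and 2.46 to 3.58 CPM. Adgre1, Cd68, Timd4, Krt19 and Krt7 were among the markers with no tested peak.

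All 208 peaks together held 1.90%, 1.84% and 1.76% of the counts in control replicates 1, 2 and 3 and 1.67%, 1.65% and 1.503% in cadmium replicates 1, 2 and 3. The groups do not overlap. Within this, subfamily 2a held 0.213 ± 0.0155% in the controls and 0.146 ± 0.00837% in the cadmium samples (SD, n = 3). Subfamily 3a held 0.372 ± 0.0116% and 0.272 ± 0.0293%, and 1a held 0.258 ± 0.0305% and 0.263 ± 0.0189%. These shares are sums over chosen members and were not tested. The authors' deposited table calls 4 of the 208 peaks Down, the 3 of Cyp2a5 and 1 of Cyp2c29, and 1 Up, that of Cyp2j11. In the authors' deposited table the Cyp2c29 and Cyp2j11 peaks have adjusted p-values of 0.179 and 0.149, so that call did not require an adjusted p below 0.05.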

How the data were processed

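The deposited table has 1 row per m6A peak, with raw whole-number counts from the authors for 3 control and 3 cadmium libraries. The log2 fold change and adjusted p-value columns that the authors added to each row were used only where named. Named in the submitters' processing notes, with no role or setting, were mm10 and DESeq2 4.1.0, MACS2 2.1.1, SAMtools 1.3.1, STAR 2.7.1a and cutadapt 1.1.8. Peak calling per sample or on pooled samples was not stated. Coordinates are as deposited.

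The test was the quasi-likelihood F test of edgeR 4.0.16 (R 4.3.3), with TMM scaling, filterByExpr (minimum count 10, minimum total 15) and Benjamini-Hochberg adjustment over 37088 peaks. The SE is the absolute log2 difference divided by the square root of F. Counts summed per annotation were tested over 12645 units, of which 43 hold a P450 symbol of these families, and a peak against the other peaks of its gene with diffSpliceDGE. DESeq2 1.42.0, other scalings, no filter, single-symbol peaks, the batch as a block and leaving out each sample were the alternatives. The scripts were tested on simulated data. The biological coefficient of variation was 19.4%.

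The labels name replicate numbers as batches. Correlations of the deviations from group means were 0.146, 0.214 and 0.174 within batches and -0.173 to 0.0163 across them. Deviations from a shared group mean are tied to each other, so these values are not independent. They were not tested and do not settle whether the numbers pair the samples. The main test did not use the batch. Members and gene lists were chosen with earlier results of these data known. By rule, library values are given for genes called by leading peak or sum and for the gene with the most counts in each subfamily, and other members by range, or with values beside a called neighbour. Cyp2c29, Cyp2b10, Cyp2c40, Cyp3a25 and Cyp2j11, and the called peaks of Cyp2c50 and Cyp2c54, were shown in addition, after their values were seen.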

Additional observations from a re-analysis of the deposited data

How the results depend on the processing

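The 10 lower peaks became 24 with DESeq2, 23 with the batch as a replicate block, 4 with library totals only, and 3 to 12 with 1 sample left out, the fewest without cadmium replicate 3. The 2 higher peaks became 7 with DESeq2, 0 with no filter and 0 to 3 with 1 sample left out. The 3 leading peaks called lower became 5 with DESeq2, 6 with the block and 1 to 3 with 1 sample left out, and the 0 called higher became 2, 1 and 0 to 1. For summed counts, the 3 lower genes became 9 with DESeq2, 7 with the block and 2 to 4 with 1 sample left out, and the 1 higher gene became 2, 0 and 0 to 2. The members' mean share was 2.099% in controls and 1.84% in cadmium samples without the 2 largest peaks. The log2 difference of Cyp1a2 was 0.0241 with upper-quartile scaling and 0.0236 with library totals (-0.118 to 0.0818 with 1 sample left out). That of Cyp2d10 was 0.0064 and 0.0155 (-0.111 to 0.0476). With 1 sample left out Cyp2f2 ran from -0.135 to 0.0631 and Cyp2r1 from -0.283 to 0.219, and Cyp2r1 was -0.0083 under the block. The causes were not tested. Other scalings moved the median of all peaks by at most 0.04. Of all values recomputed for single genes, 350 kept side and direction, 19 lost their call, 11 gained one and 12 changed sign. The block gave calls to the leading peaks of Cyp2b13, Cyp2c40, Cyp3a25 and Cyp3a59 and changed no other leading peak.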
